A study of Mus musculus with 6 samples.

Results

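Deep intron clusters bound by both NOVA proteins were the NOVA1 clusters that lay in an intron, had their midpoint more than 500 nt from every exon edge of the same gene, and shared at least 1 nt with a NOVA2 cluster of that strand. A cluster is a stretch of the genome covered by overlapping CLIP tags of 1 strand, and a tag is a sequenced RNA fragment counted once after removal of PCR duplicates. The rule found 3405 of the 9988 NOVA1 clusters, or 34.1% (Wilson 95% interval 33.17 to 35.03). They are called shared deep intron clusters here. Both sets of values that entered the rule, the presence in the NOVA1 list and the presence in the NOVA2 list, rest on a minimum of 10 tags, so the overlap itself and the lower end of the tag counts are properties of the selection.

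The clusters came from HITS-CLIP, in which RNA is crosslinked to protein by ultraviolet light in the tissue, recovered with an antibody against the protein and sequenced. NOVA1 and NOVA2 were each profiled in the cortex of wild-type CD1 mice at embryonic day 18.5, with 3 libraries per protein, so both groups had the same genotype, strain, age and tissue and differed in the antibody. The tag counts had been pooled over the 3 libraries of a protein before deposition. No value had a replicate, the spread between libraries was unknown, and no test was possible. The intervals given below are 95% intervals that cover counting error only, and clusters of 1 gene or of 1 library are not independent of each other.

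NOVA1 and NOVA2 are closely related neuronal RNA-binding proteins whose KH domains bind the tetramer YCAY, where Y is C or U. They are best known as splicing regulators, and the position of their binding relative to an alternative exon sets whether the exon is included or skipped. Binding far from any exon lies outside the window in which that positional rule is usually read. Very long introns are common in genes of neuronal adhesion and signalling, and the introns are part of the unspliced transcript in the nucleus.

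The 30 nt with the most YCAY tetramers are printed first for the 6 shared deep intron clusters in which this window held the most, to show what the densest binding sites look like. Capitals mark YCAY, that is CA with C or U on either side, on the transcript strand, positions are in mm9, and each window held 9 YCAY starts.
Mllt3, intron 3, chr4:87669037-87669066, minus strand: CCACCACCACCACCAUCAUCAUCAUCAUua
Rab10, intron 1, chr12:3280104-3280133, minus strand: CCACCAUCAUCAUCAUCAUCAUCAUCAUcg
Ank2, intron 4, chr3:126868644-126868673, minus strand: UCAUCAUCAUCACCACCAUCAUCAUCAUcu
Ldb2, intron 5, chr5:44899710-44899739, minus strand: cuUCAUCAUCAUCACCAUCAUCAUCAUCAU
Celf2, intron 4, chr2:6714411-6714440, minus strand: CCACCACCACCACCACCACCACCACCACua
Dab1, intron 6, chr4:104080157-104080186, plus strand: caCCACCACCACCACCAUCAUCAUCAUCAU

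In these 6 windows successive YCAY tetramers shared a base, so that a new tetramer began every 3 nt. Mllt3, which encodes a protein of the transcription elongation machinery, had 149 NOVA1 and 391 NOVA2 tags in its cluster. Rab10, a small GTPase of vesicle transport, had 61 NOVA1 and 122 NOVA2 tags. Ank2, which encodes ankyrin-B, had 54 and 123, and Ldb2, an adaptor of LIM domain transcription factors, had 53 and 171. Celf2, itself a splicing factor, had 49 NOVA1 and 286 NOVA2 tags, and Dab1, the adaptor of Reelin signalling in migrating cortical neurons, had 41 and 303. NOVA2 tags exceeded NOVA1 tags in each of the 6 clusters. The Celf2 cluster matched 106 further places of the genome at 90% identity or more over 50% or more of its length, and the other 5 matched none.

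The same window is printed for 7 of the 8 shared deep intron clusters with the highest NOVA1 tag counts, because these fall into 2 kinds of sequence.
2610528E23Rik, intron 3, chr16:57391650-57391679, minus strand: cucuccaguccgccgagggcgcaCCACcgg
Camk1d, intron 5, chr2:5300336-5300365, minus strand: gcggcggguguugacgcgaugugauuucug
Cdk8, intron 2, chr5:147072874-147072903, plus strand: ggauucaacccggcggcgcgcguccgCCAU
Rbfox1, intron 1, chr16:7024479-7024508, plus strand: CCACugCCAUCAUCAUuaCCAUCACuaaua
Hs3st4, intron 1, chr7:131215176-131215205, plus strand: ugUCAUCAUCACugUCACCAUCAUCAUCAC
Clasp2, intron 30, chr9:113787160-113787189, plus strand: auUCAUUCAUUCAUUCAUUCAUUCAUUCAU
Srrm4, intron 1, chr5:117030747-117030776, minus strand: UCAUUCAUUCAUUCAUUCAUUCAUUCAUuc

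The first 3 of these 7 clusters had many NOVA1 tags, few NOVA2 tags and almost no YCAY. The cluster of 2610528E23Rik had 1533 NOVA1 and 26 NOVA2 tags and 1 YCAY in 262 nt. The cluster of Camk1d, a calcium and calmodulin-dependent kinase, had 482 NOVA1 and 16 NOVA2 tags and 0 YCAY in 130 nt. The cluster of Cdk8, the kinase of the Mediator complex, had 308 NOVA1 and 13 NOVA2 tags and 1 YCAY in 128 nt. The G and C content of these clusters was 69.1%, 49.2% and 65.6%, against a median of 37.2% over all shared deep intron clusters. The 2610528E23Rik cluster had 3 and the Camk1d cluster 7 further copies in the mm9 assembly, and the Cdk8 cluster had 0. Sequence missing from the assembly was not searched, so a count of 0 does not show that a cluster is unique. The best further copy of the Camk1d cluster, on chromosome 3, carried a NOVA1 cluster of 122 tags and no NOVA2 cluster. The part of copies and of base composition in these counts was not tested. Whether the tags came from these introns or from like sequence elsewhere was not tested either. Together the 3 clusters held 2323 of the 71215 NOVA1 tags in shared deep intron clusters, or 3.26%.

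The other 4 clusters were rich in YCAY and had more NOVA2 than NOVA1 tags. Rbfox1, which encodes a neuronal splicing factor, had 284 NOVA1 and 2279 NOVA2 tags and 49 YCAY in 534 nt, and this was the highest NOVA2 count of all shared deep intron clusters. Hs3st4, a heparan sulfate sulfotransferase, had 231 NOVA1 and 1800 NOVA2 tags and 74 YCAY in 508 nt, with 1 further copy in the genome. Clasp2, a microtubule plus-end protein, had 192 NOVA1 and 459 NOVA2 tags, and Srrm4, a splicing activator of neuronal microexons, had 181 and 683. In Clasp2 and Srrm4 the window was a run of UCAU repeated every 4 nt. Of the 8 clusters with the most NOVA2 tags, 3 lay in Hs3st4, 2 in Gm5567 and 2 in Rbfox3, beside the Rbfox1 cluster. Rbfox3 is the gene of the neuronal nuclear protein NeuN. Some of the 8 overlapped the same NOVA2 cluster, so they do not stand for 8 separate NOVA2 clusters. In Hs3st4 2 of the 3 lay under the same NOVA2 cluster, and 1 of these had 10 NOVA1 tags and 0 YCAY in 51 nt. The pair in Gm5567, with 145 and 71 NOVA1 tags, lay end to end under 1 NOVA2 cluster of 1343 tags. The pair in Rbfox3 had 82 and 67 NOVA1 tags and held 76 and 44 YCAY. Its NOVA2 counts were 1250, summed over 2 NOVA2 clusters, and 1238.

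The shared deep intron clusters lay in 1081 genes on 20 chromosomes, and 3362 of them (98.7%) lay in protein-coding genes. They made up 95.8% (95.04 to 96.37) of the 3556 NOVA1 clusters in deep introns and 88.7% of the 3841 intron NOVA1 clusters that overlapped a NOVA2 cluster. From the NOVA2 side, 3399 of 24624 deep intron NOVA2 clusters, or 13.8%, overlapped a NOVA1 cluster. The shared deep intron clusters held 23.4% of the 304703 tags in the NOVA1 list. Their median width was 116 nt, with quartiles of 88 and 153 nt. In 3060 clusters 1 NOVA1 cluster overlapped 1 NOVA2 cluster and neither overlapped another, and tag counts of the 2 proteins were compared in these pairs only. In the pairs 61.0% of NOVA1 clusters lay wholly inside the NOVA2 cluster, whose median width was 158 nt, and the midpoints were a median of 18 nt apart.

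At the distance threshold, the 57 shared intron clusters with midpoints within 100 nt beyond the limit of 500 nt had a median of 17 NOVA1 tags, and the 49 clusters within 100 nt inside that limit, which the rule left out, had a median of 15. Their log2 tag ratios, NOVA1 over NOVA2, had medians of -1.99 and -2.21. At the overlap threshold, no shared deep intron cluster overlapped by 10 nt or less, the smallest overlap being 13 nt, and 14 deep intron NOVA1 clusters had a NOVA2 cluster within 100 nt without overlap, with a median of 11.5 NOVA1 tags.

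Shared deep intron clusters had about 4 times as many unscaled NOVA2 as NOVA1 tags, and relative to NOVA2 they had fewer NOVA1 tags than 3' UTR positions of both proteins. Over the 3060 pairs the NOVA1 count ranged from 10 to 1533 with a median of 15, and the NOVA2 count ranged from 10 to 2279 with a median of 65. The log2 ratio of NOVA1 over NOVA2 tags had a median of -2.05 (-2.09 to -2.00), with quartiles of -2.64 and -1.37. This median was of unscaled tags. It was -0.70 after division by the number of unique tags sequenced for each protein and 0.06 after division by the summed tags of each list, so the direction of the ratio within deep introns depended on the scaling. Differences between kinds of position do not change with a scaling of this kind. NOVA1 had at least as many unscaled tags as NOVA2 in 87 pairs, or 2.84% (2.31 to 3.49), against 16.8% of the 6770 pairs of all classes. NOVA2 had at least 4 times the NOVA1 tags in 1599 pairs, or 52.3% (50.5 to 54.0), against 31.7% of all pairs. With scaling to unique tags the share of pairs with NOVA1 at or above NOVA2 was 24.6% in deep introns and 50.3% in all classes, and with scaling to list sums it was 52.5% and 71.4%.

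**Figure D1:**
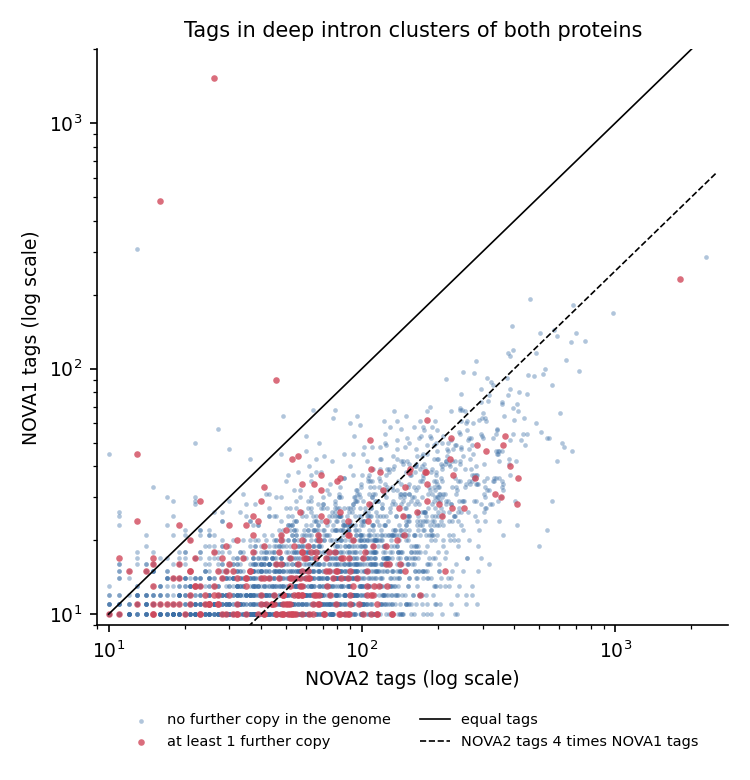
NOVA1 tags (vertical axis, log scale) against NOVA2 tags (horizontal axis, log scale) for the 3060 pairs, unscaled, with a solid line at equal tags and a dashed line at 4 times as many NOVA2 tags. Points cluster about the dashed line from the threshold of 10 tags upward, clusters with further copies in the genome (red) lie among the rest, and 3 points with 308, 482 and 1533 NOVA1 tags stand far above the line of equal tags.

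In the 394 pairs in introns within 500 nt of an exon edge the median log2 ratio was -1.96 (-2.08 to -1.84). The difference from deep introns was -0.08 (-0.25 to 0.08), so a difference was not detectable beyond counting error, and the interval does not show that the 2 are equal. In the 2152 pairs in 3' UTRs the median was -0.40 (-0.45 to -0.35), with 21 NOVA1 and 28 NOVA2 tags in the median, and the deep intron median was lower by 1.65 on the log2 scale, as a difference of -1.65 (-1.74 to -1.55). In the 297 pairs in coding sequence the median was -0.13. The gap to 3' UTRs was also present within genes: of 327 genes with pairs of both kinds, 297 (90.8%, 87.2 to 93.5) had a lower median ratio in deep introns, and the median difference within genes was -1.61 (-1.73 to -1.48).

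**Figure D2:**
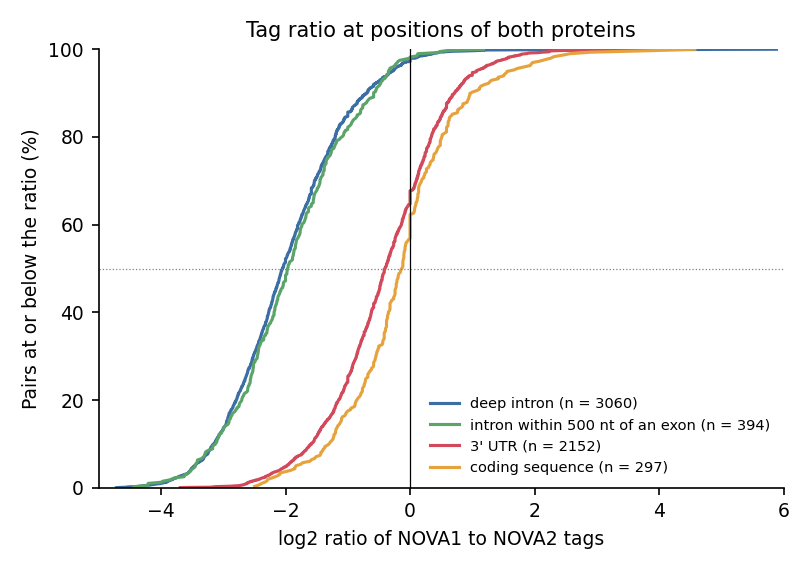
Cumulative share of pairs (vertical axis, percent) at or below each unscaled log2 ratio of NOVA1 to NOVA2 tags (horizontal axis) for deep introns, introns within 500 nt of an exon, 3' UTRs and coding sequence. The 2 intron curves nearly coincide, with medians of -2.05 and -1.96, and the 3' UTR and coding sequence curves lie to the right, with medians of -0.40 and -0.13.

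Within the shared deep intron clusters high counts of 1 protein went with high counts of the other. Across the 3060 pairs Spearman's rho was 0.55, and Pearson's r was 0.58 on log2 counts, as a description across clusters that share their libraries and their gene's transcript level. The median log2 ratio was -2.03 in pairs with 10 or 11 NOVA1 tags, -2.05 with 15 to 21 and -2.02 with 50 or more, while the median NOVA2 count rose from 42 to 70 and 282. The ratio thus moved little over the range of NOVA1 counts. It describes only pairs with 10 or more tags of each protein, and positions with fewer NOVA1 tags do not enter it. The share of deep intron NOVA2 clusters that overlapped a NOVA1 cluster was 1.64% at 10 to 14 NOVA2 tags, 18.9% at 30 to 49, 47.2% at 50 to 99 and 85.2% at 100 or more. This share follows from 2 lists with the same minimum of 10 tags and is given as a description of the selection.

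The pairs at the ends of the ratio show the range, and they were picked by the ratio itself. Among pairs with 50 or more tags in sum, the 5 highest log2 ratios were those of the 2610528E23Rik (5.88), Camk1d (4.91) and Cdk8 (4.57) clusters described above, followed by Hs3st4 with 45 NOVA1 and 10 NOVA2 tags and Ipo11, a nuclear import receptor, with 45 and 13. The Ipo11 cluster was a CCAU repeat with 512 further copies. The lowest ratio, -4.72, was in intron 6 of Odz2, with 19 NOVA1 and 499 NOVA2 tags. Fgf14 followed with 11 and 285, then Msra, a methionine sulfoxide reductase, with 22 and 539 and with 10 and 238, and Ttc28 with 11 NOVA1 tags and a ratio of -4.55. None of these 5 clusters had a further copy in the genome, and they held 4 to 16 YCAY each. The 87 pairs with NOVA1 at or above NOVA2 had a median of 13 NOVA2 tags, an upper quartile of 16.5 and at most 64, near the threshold of the NOVA2 list. Further copies were found for 13 of the 87 (14.9%, 8.95 to 23.9) and for 288 of the 3403 clusters that could be searched (8.46%, 7.57 to 9.45). The median ratio was -1.98 with and -2.06 without a further copy.

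YCAY was dense in the shared deep intron clusters. They held 55.0 YCAY starts per 1000 positions (54.3 to 55.7), against 19.1 in their own flanks 200 to 500 nt from either end, a 2.88-fold excess. The median cluster held 6 YCAY, with quartiles of 4 and 8 and a highest count of 76. Density was above that of the cluster's own flanks in 3260 clusters, or 95.7% (95.01 to 96.37), and 11 clusters (0.323%) had no YCAY. Both shares were near those of similar clusters. Shared intron clusters near exons were denser than their flanks in 95.9%, and 0.459% had no YCAY. For deep intron NOVA2 clusters without NOVA1 these shares were 92.7% and 0.415%. In 2486 clusters (73.0%) a window of 30 nt held 3 or more YCAY, and in 675 (19.8%) it held 5 or more, the kind of sequence printed above. YCAY was counted on the transcript strand with overlapping tetramers counted separately.

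Deep intron clusters of 1 protein alone had fewer YCAY. The 21225 deep intron NOVA2 clusters without NOVA1 had 43.9 per 1000 positions (43.7 to 44.2), 2.34-fold over their flanks, with a median width of 108 nt. The 151 deep intron NOVA1 clusters without NOVA2 had 34.3 (31.6 to 37.3), and 7.28% of them had no YCAY. Shared intron clusters near exons had 48.0 (46.2 to 49.9), and shared 3' UTR clusters had 27.1 (26.6 to 27.5), against 16.9 in their flanks. The interval of the shared deep intron clusters lay above each of these. All these intervals treat YCAY starts as independent, although starts often come in runs, so they understate the spread between clusters. Against NOVA2 clusters without NOVA1 the comparison sets ends drawn by NOVA1 tags against ends drawn by NOVA2 tags. The NOVA2 clusters under the shared deep intron clusters held 48.97 per 1000 (48.4 to 49.5). At matched NOVA2 tags the deep intron NOVA2 clusters that overlapped NOVA1 had 49.2 and those that did not 43.4 at 10 to 14 tags, 48.9 and 44.0 at 30 to 49 tags, and 48.0 and 44.1 at 50 to 99 tags. The intervals overlapped in the other 3 bins, with 44.4 and 44.0 at 15 to 19 tags, 46.1 and 43.8 at 20 to 29 tags, and 50.4 and 50.2 at 100 tags or more. Among the shared deep intron clusters YCAY density was 52.4 at 10 or 11 NOVA1 tags, 56.1 at 22 to 49 and 66.0 (63.4 to 68.7) at 50 or more.

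**Figure D3:**
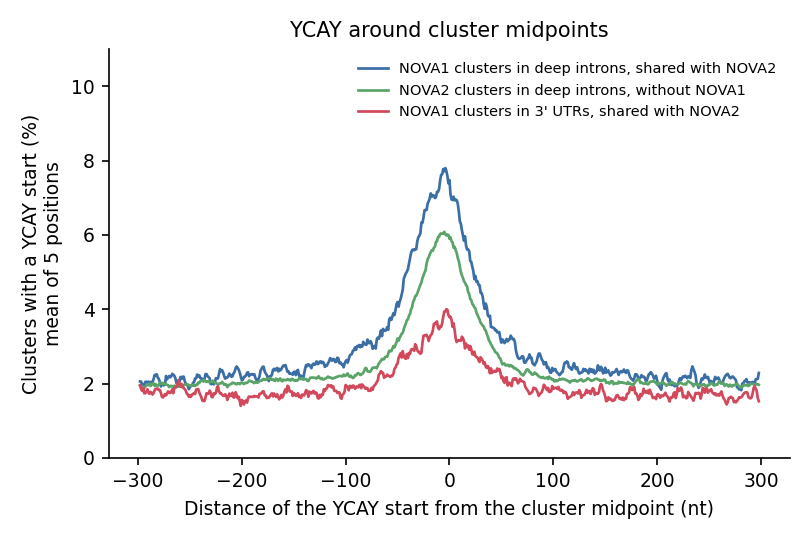
Share of clusters with a YCAY start (vertical axis, percent, mean of 5 neighbouring positions) by distance from the cluster midpoint in nt on the transcript strand (horizontal axis). Shared deep intron clusters have the tallest peak, with a single position of 8.37% at 2 nt before the midpoint, above deep intron NOVA2 clusters without NOVA1 (6.15%) and shared 3' UTR clusters (4.49%), and all 3 fall to about 2% at 250 to 300 nt.

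The profile around the midpoint showed a peak of 8.37% of shared deep intron clusters with a YCAY start at a single position, against a mean of 2.08% at 250 to 300 nt. Of all tetramers, UCAU was the most enriched over flanks, with 26.4 per 1000 positions in the clusters and 6.36 in flanks, a log2 ratio of 2.05. CAUC followed at 1.98 and AUCA at 1.59, and these 2 span the junction of UCAU copies that overlap by a base. Close spacing of YCAY, as in the printed windows, made up part of the intervals. Of 19854 intervals between successive YCAY starts, 15.7% were of 3 nt and 15.1% of 4 nt. Intervals of 3 or 4 nt made up 30.8% (30.2 to 31.5), against 10.4% in the flanks and 18.7% in deep intron NOVA2 clusters without NOVA1. The median interval was 8 nt in the shared deep intron clusters, 11 nt in the NOVA2 clusters without NOVA1 and 26 nt in the flanks. Clusters with a further copy in the genome had 77.3 YCAY per 1000 positions and those without had 53.3.

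The clusters lay far from exons and in long introns. Their median distance from an exon edge was 18445 nt, with quartiles of 4158 and 58224 nt, and 415 clusters (12.2%) lay more than 100 kb from any exon of their gene. The deep intron NOVA2 clusters without NOVA1 had a median distance of 13009 nt (12559 to 13449). The median intron was 97140 nt long, against 66878 nt for the NOVA2 clusters without NOVA1, and 52.5% (50.8 to 54.2) of the shared clusters were in the longest intron of their gene, against 45.9%. The first intron held 26.9%, against 22.7%. Neither the tag ratio nor YCAY density ran steadily up or down with distance. The median log2 ratio was -2.02 at 500 to 1000 nt, -2.10 at 1 to 5 kb and -1.98 at 5 to 20 kb. It was -2.10 at 20 to 100 kb and -1.90 beyond 100 kb. YCAY density was 51.2, 56.6, 56.7, 55.2 and 50.6 per 1000 positions at the same distances. The 6 clusters farthest from an exon were all in intron 3 of Lrrtm4, a postsynaptic adhesion protein, and the farthest of them, 384287 nt from an exon, had 17 NOVA1 and 64 NOVA2 tags. The strongest of the 6 had 128 NOVA1 and 670 NOVA2 tags with 54 YCAY.

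Within introns the clusters lay towards the 5' splice site. When each intron was cut into 5 equal parts from the 5' to the 3' splice site, the parts held 26.4%, 27.2%, 23.3%, 15.1% and 8.05% of the shared clusters, and 66.0% (64.4 to 67.6) were nearer the 5' splice site. Among NOVA2 clusters without NOVA1, 59.8% (59.1 to 60.4) were nearer the 5' splice site. In introns of 100 kb or longer the part next to the 5' splice site held 31.2% and the part next to the 3' splice site 4.39% (3.52 to 5.48), against 27.7% and 8.54% for NOVA2 clusters without NOVA1. Of the shared clusters 712 (20.9%, 19.6 to 22.3) lay within 1 kb of another shared cluster, and 33 directly abutted the next one. With at least 20 tags in both lists the share was 11.1%. Of the more numerous NOVA2 clusters without NOVA1, 37.2% (36.6 to 37.9) lay within 1 kb of another of their kind.

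Shared deep intron clusters were concentrated in long genes. Of the 1081 genes, 601 had 1 cluster and 66 had 10 or more, and these 66 held 1400 clusters, or 41.1%. The median length of the genes was 140.5 kb, against 67.5 kb for genes with deep intron NOVA2 clusters and none of these, and 15.4 kb for all protein-coding genes. Nrg3, a neuregulin ligand of the ERBB4 receptor, had the most, with 66 clusters of 10 to 73 NOVA1 tags, 50 of them in its intron 1 of 459873 bp. Ptprd, a receptor tyrosine phosphatase that organises presynaptic terminals, had 64 clusters in 11 introns. Nrxn3, which encodes a presynaptic adhesion protein, had 58 clusters in 14 introns. Odz2, the teneurin-2 gene, had 44, and the highest had 148 NOVA1 tags. Rbfox1 had 37, and 28 of them lay in intron 1.

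Fgf14, which encodes a modulator of voltage-gated sodium channels, had 36 clusters and Cadm2, a synaptic adhesion gene, had 33, and in each gene intron 1 held 31. Csmd1 had 35, the synaptic adhesion gene Lrfn5 31, Celf2 30 and Auts2, a gene of neuronal development, 28. The 12 genes with the most clusters together held 519, or 15.2%. Per length the order changed: Lrfn5 had 9.26 clusters per 100 kb, Rbfox1 6.13, Nrg3 5.98, and Csmd1 2.13. In Ptprd 13.7% of 467 and in Celf2 13.9% of 201 deep intron NOVA2 clusters overlapped NOVA1, against 24.2% of 260 in Nrg3 and 27.1% of 107 in Lrfn5.

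**Figure D4:**
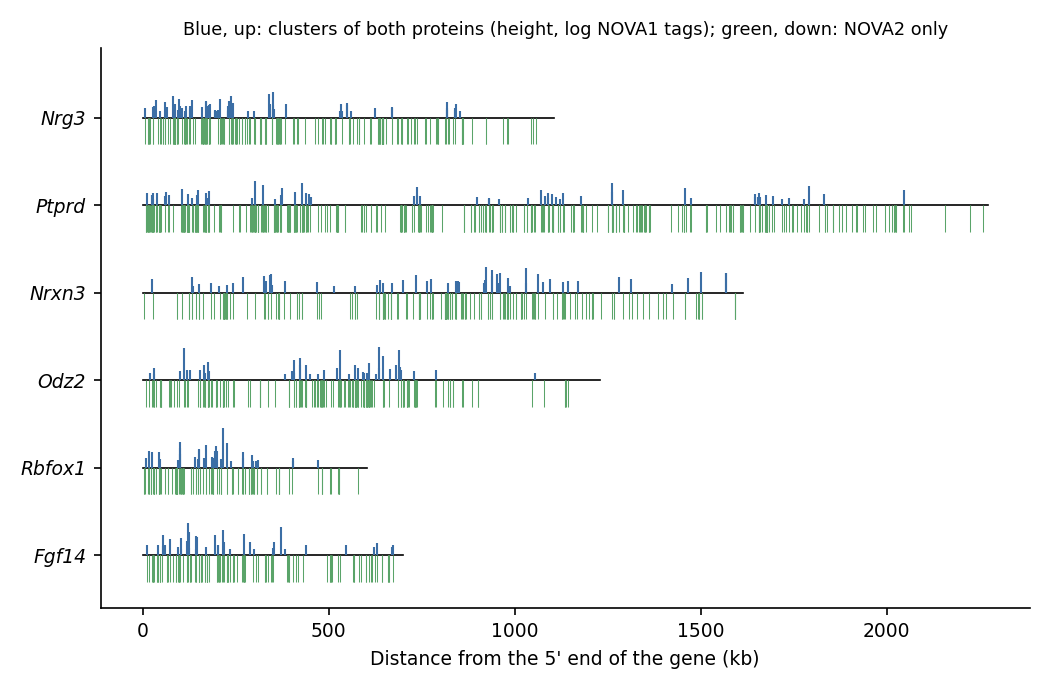
Position of clusters along 6 genes, in kb from the 5' end of the gene (horizontal axis): blue ticks upward are shared deep intron clusters with height on a log scale of NOVA1 tags, green ticks downward are deep intron NOVA2 clusters without NOVA1. Nrg3 and Rbfox1 carry most of their shared clusters in the 5' part of the gene, and Ptprd and Nrxn3 carry them along most of their length.

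Median tag ratios were spread between genes, with wide overlap of single clusters. In the 59 genes with 10 or more pairs the median log2 ratio ran from -3.20 to -0.76, with an SD of the gene medians of 0.49 and a pooled SD of single clusters within genes of 0.88. The lowest medians were in Lrrc7, a postsynaptic scaffold gene (-3.20, 13 pairs), Macrod2 (-2.97, 10 pairs), Ptprd (-2.93, 55 pairs) and Celf2 (-2.90, 23 pairs). In Lrrc7 the pairs ran from 10 NOVA1 and 115 NOVA2 tags to 69 and 396, with 1 pair at 10 and 10. The highest were in Purg, a purine-rich element binding protein (-0.76, 11 pairs), Ank3, which encodes ankyrin-G of the axon initial segment (-0.88, 10 pairs), Adarb2 of the RNA-editing enzyme family (-0.92, 12 pairs) and Lrrc4c, a ligand of netrin-G1 (-1.11, 10 pairs). In Purg single pairs ran from a log2 ratio of -1.95 to 0.47, and the pair with the most tags had 45 from NOVA1 and 48 from NOVA2. Purg is a gene of 31.1 kb, and 64.7% of its 17 deep intron NOVA2 clusters overlapped NOVA1. Its shared clusters, all in 1 intron, held 27.8 YCAY per 1000 positions. The value was 55.0 over all shared deep intron clusters and 27.1 in shared 3' UTR clusters. Whether the intron label of the Purg clusters holds was not tested. In Nrg3, whose median of -2.07 was near that of all pairs, single clusters ran from -4.26 to -0.13. These genes were ranked by the ratio itself, and a test across libraries was not possible.

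**Figure D5:**
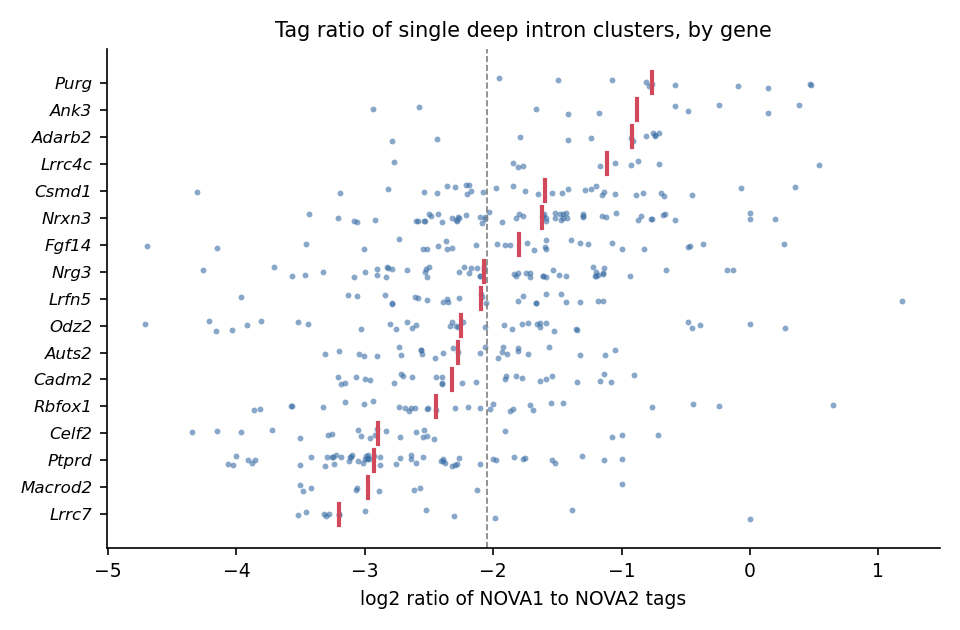
Unscaled log2 ratio of NOVA1 to NOVA2 tags (horizontal axis) of each paired shared deep intron cluster in 11 of the 12 genes with the most clusters and in the genes with the 4 lowest and 4 highest medians, ordered by median. Each point is 1 cluster, the red bar is the gene's median and the dashed line is the median of all 3060 pairs, -2.05. The medians run from -3.20 in Lrrc7 to -0.76 in Purg, and the points of neighbouring genes overlap.

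The share of genes with a shared deep intron cluster varied between gene groups. Of 22238 protein-coding genes, 1061 (4.77%) had one and 3451 had a deep intron NOVA2 cluster. The second count is given for each group too, because a shared cluster overlaps a NOVA2 cluster by the rule. Genes with a shared cluster were long, as given above, and the part of gene length in the shares of these groups was not tested. The groups were also listed with earlier results of these data known, so their shares are descriptions only. Among genes of synaptic adhesion and teneurin signalling 31 of 41 had one, with 517 clusters in all and a median log2 ratio of -2.06. Examples beside those above were Lsamp and Il1rapl1, adhesion genes with 26 and 22 clusters, and Cntnap2, with 18 clusters and a ratio of -1.28. Among glutamate receptor subunits 17 of 24 genes had one, and they held 113 clusters: the kainate receptor gene Grik2 had 22, the metabotropic receptor genes Grm5 and Grm7 had 15 each, and the NMDA receptor gene Grin2b had 13. Among voltage-gated ion channel genes 21 of 31 had one, led by Kcnd2, an A-type potassium channel, with 23. Among scaffold and vesicle release genes 20 of 34 had one, with 25 clusters in Magi2 and 23 in Dlg2. Genes with a deep intron NOVA2 cluster numbered 36 in synaptic adhesion and teneurin signalling and 20 among glutamate receptor subunits. They numbered 27 among ion channel genes and 29 among scaffold and vesicle release genes.

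In axon guidance and cell migration 16 of 41 genes had a shared deep intron cluster. Dab1 had 18 clusters, Dcc, a netrin receptor, had 16, Sema6d 12 and Robo2, a Slit receptor, 10. Among RNA-binding protein genes 20 of 37 had one, with 117 clusters and a median log2 ratio of -2.51. Rbfox1, Celf2 and Nova1 had the most, and the 8 clusters of Nova1 had 10 to 26 NOVA1 tags and a median log2 ratio of -0.64 in 3 pairs. Among cytoskeletal genes 20 of 32 and among kinases and calcineurin 15 of 24 had one. Of 7 neuregulin signalling genes 2 had one, Nrg3 and Erbb4, which had 14. Of the transcription factors of cortical neurons 16 of 28 had one, with 28 of the 56 clusters in Auts2. Deep intron NOVA2 clusters were present in 34 axon guidance and cell migration genes, 29 RNA-binding protein genes and 30 cytoskeletal genes. They were present in 20 kinase and calcineurin genes, 4 neuregulin signalling genes and 22 transcription factor genes.

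Markers of cell types are given beside the 4.77% of all protein-coding genes with a shared deep intron cluster. The non-neuronal lists are too short to set a share apart from it, and no list was tested against it. None of 8 oligodendrocyte lineage, 6 microglial and 7 endothelial and blood marker genes had a shared deep intron cluster, and 1 of 11 radial glia and astrocyte markers had one. Pan-neuronal markers had them in 8 of 13 genes, glutamatergic neuron markers in 2 of 8 and interneuron markers in 2 of 10. Of the interneuron group's 16 clusters, 14 lay in Erbb4. A deep intron NOVA2 cluster was present in 9 pan-neuronal, 3 glutamatergic neuron and 3 interneuron markers. The oligodendrocyte lineage, endothelial and blood, and radial glia and astrocyte lists had 1 such gene each, and the microglial list had 0. The part of gene length in these counts was not tested.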

How the data were processed

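NOVA1 and NOVA2 HITS-CLIP libraries from wild-type cortex at embryonic day 18.5 (3 biological replicates per protein) were processed by the authors: tags were aligned to mm9 with Novoalign (version not given in the sources used here), PCR duplicates were removed, and clusters were kept where at least 2 of the 3 libraries contributed tags. The deposited BED lists give 1 tag count per cluster, at least 10, pooled over libraries and not scaled. The paper calls the measure of its tag minimum peak height, and the lists do not name theirs. Where the value is a highest depth rather than all tags of a cluster, sums of tags are sums of depths. Depth per library was not analysed here. The unique tag totals per protein, taken from the paper, served only to scale the ratio. The lists hold 304703 NOVA1 and 1309270 NOVA2 tags, and 0 columns of per-sample values were left unused.

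Each cluster was classed by the GENCODE vM1 feature holding most of its bases on its strand (order CDS, UTRs, noncoding exon, intron), and ties between genes went to the shorter gene. In 12 shared deep intron clusters the sequence lies in an exon of a retained-intron transcript, and these have no intron position. Further copies were sought in the mm9 assembly only, with BLAST+ 2.17.0 (word size 24 nt, 2 clusters of this length or shorter gave no value). Tables were computed with Python 3.11.15, pysam 0.24.0, pandas 2.3.3 and SciPy 1.17.1, and the steps were tested on simulated data. Shares have Wilson, rates exact Poisson and medians binomial order-statistic 95% intervals. Named clusters were the 8 with the highest NOVA1 and the 8 with the highest NOVA2 tags, the 5 highest and 5 lowest ratios among pairs of 50 tags or more, the 6 with the most YCAY in 30 nt and the 6 farthest from an exon. Named genes were the 12 with the most clusters and genes of the lists with 4 or more, and the genes at the ends of the ratio were chosen after their values were seen. The clusters, gene lists and comparisons were chosen with earlier results of these data known. Some items that these rules name are not reported here.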

Additional observations from a re-analysis of the deposited data

How the results depend on the processing

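No paired analysis was possible because the tags of the 3 libraries of a protein were pooled, and for the same reason no library could be left out. Of 63 alternative values of 8 results, 44 stayed within the main interval (counts within 1.5 times), 18 moved and 1 reversed. The reversal was the median log2 ratio, -2.05, which became 0.056 with tags divided by list sums and was -0.70 with division by unique tag totals and -2.13 with NOVA2 tags summed over all overlapping pairs. With at least 20 tags in both lists 1039 clusters remained, with a ratio of -2.13, 58.5 YCAY per 1000 positions, 97.1% denser than their flanks, 54.3% in the longest intron and 11.1% within 1 kb of another. The share in the longest intron was 50.6%, 55.0% and 59.1% at more than 250, 1000 and 2000 nt from exon edges, and 58.3% with introns of the longest coding transcript. YCAY density was 53.3 without clusters that have further copies, 57.1 in 100 nt around the midpoint and 57.5 in the part inside the NOVA2 cluster. The share denser than flanks was 96.7% with flanks at 500 to 1000 nt, and the share near another cluster was 16.3% within 500 nt and 35.4% within 5 kb. Other overlap rules, class at the midpoint and exon edges of any gene moved nothing. The causes were not tested. A threshold of 10 tags limits what can be said of weaker sites.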
